A study of Mus musculus with 2 samples.

Results

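The genes described are the SPARC family and related matricellular proteins in mouse limb-mesenchymal organoids: Smoc1, Smoc2, Sparc, Sparcl1, Spock1, Spock2, Spock3, Fstl1, Postn and Tnc. They were chosen by name, with Smoc2 known from earlier results of these data to differ, and all 10 were found among the 13916 protein-coding genes of the authors' deposited comparison. The cells were limb mesenchyme of mouse embryos (genotype Slc:ICR) and grew as organoids for 48 h in medium with Fgf8b and Wnt3a. On day 2, 5 organoids were frozen, which came from 4 surrogate cultures. In sections of 10 µm, 5 distal regions and 5 proximal regions were lit with ultraviolet light, which releases cDNA made in place with caged primers (photo-isolation chemistry). Each region carried its own barcode, and 1 library held the 5 regions of each side. Both sides shared the strain, the medium and the day, so the side was the difference between the groups. The side and the library were the same split and cannot be told apart, and the embryonic stage of the cells is not given in the sources used here.

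Matricellular proteins are secreted into the extracellular matrix, where they adjust how cells respond to the matrix and to growth factors rather than serving mainly as scaffolding. SPARC and its relatives share a follistatin-like segment and a calcium-binding extracellular segment. SPARC binds collagens, the SMOC proteins are modular calcium-binding proteins known to restrain BMP signalling, and the SPOCK proteins, also called testicans, carry glycosaminoglycan chains. Tenascin C and periostin belong to other families and are known from tendon, perichondrium and other dense connective tissue of the limb.

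Smoc1 and Smoc2, a pair alike in name and structure, had coding sequences that were 67.5% identical over 1334 aligned bases in GENCODE release M21 on GRCm38. The most similar stretch of 90 bases lies in exon 8 of both genes, within the coding sequence. It is shown because it marks how alike the aligned coding sequences are at their closest. Where in the genes the reads lay is not known here. It covers chr12:81167579-81167668 on the plus strand for Smoc1 and chr17:14368974-14369063 on the plus strand for Smoc2. Capitals mark the 14 bases that differ.
Smoc1: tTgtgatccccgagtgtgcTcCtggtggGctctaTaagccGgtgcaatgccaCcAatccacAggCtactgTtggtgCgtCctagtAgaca
Smoc2: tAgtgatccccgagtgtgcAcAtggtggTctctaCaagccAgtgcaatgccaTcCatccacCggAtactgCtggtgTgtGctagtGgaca
None of the 10 genes had a near-identical copy, defined as a match of at least 200 bases at 95% identity or more to the last 300 bases of a coding transcript in a gene elsewhere. Among the other relatives, Sparc and Sparcl1 were 71.4% identical over 990 aligned coding bases, and the 3 Spock genes were 62.7 to 66.3% identical in pairs. The 10 genes lie on 10 different chromosomes, so none are neighbours. Smoc2 overlaps 4930474M22Rik, Sparcl1 overlaps Gm26703 and Tnc overlaps 8030451A03Rik, each on the opposite strand. Spock3 overlaps 4 other genes, 1 of them on the opposite strand, and Smoc1 and Spock2 each overlap 1 microRNA gene on their own strand. Whether reads were counted by strand is not given in the sources used here, so reads of such a pair could not be told apart.

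Depth set the precision of every value. A size factor, the relative depth by which the counts of a region are divided, was read for each region from the lowest means of the table. The factors summed to 2.93 over the distal regions and 9.65 over the proximal regions, so distal regions held 23.3% of the depth. Each distal region then held about 47062 to 119158 counts, and each proximal region 214450 to 345127. The labelled tissue was checked on marker genes: all 7 limb mesenchyme markers were present, with summed fitted means of 318 normalized counts in distal and 438 in proximal, and 2 of them, Pdgfra and Tbx5, were called lower in distal. The list of 9 connective tissue and tendon markers summed to 416 in distal and 368 in proximal, with Osr2 called lower in distal. Nearly all of both sums came from 1 gene, Tcf4 (ENSMUSG00000053477), at 395 and 334. Whether Tcf4 marks this tissue here was not checked, so the sums say little of it. Of the 9 log2 changes, with that of Tcf4 included, 5 were negative, and the median of the 9 was -0.11. Of 7 cartilage markers 6 were in the table, with sums of 1191 and 818, and Sox9 was called higher in distal. Most of both sums came from Sox9, at 842 in distal and 522 in proximal. Of the log2 changes of these 6 genes 3 were negative, and the median of the 6 was 0.03. The part of these cell types in the differences described below was not tested. Other cell types gave few counts: 4 of 9 endothelium and blood markers were in the table with 5 distal and 18 proximal counts in all, and 4 of 7 surface ectoderm markers with 2 and 9. Krt14, Cdh1 and Trp63 of the latter had 0 distal counts. The 4 distal limb markers, Hoxd13, Hoxd12, Msx1 and Lhx2, were all called higher in distal.

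Across the 10 genes, Smoc2, Sparc and Tnc were lower in distal regions and no gene was called higher there. A gene was called when its adjusted p was under 0.05 in the authors' deposited table, which reports a DESeq2-style test of distal over proximal. By this rule 3 of 10 were called, against 0.977% of all 13916 genes. All 3 were higher in proximal, against 0.582% of all genes, and 0 of 10 were called higher in distal, against 0.395%. At an unadjusted p under 0.05 there were 4 of 10, the fourth being Spock1, against 6.07% of all genes; all 4 were higher in proximal (3.51% of all genes) and 0 in distal (2.56%). Of the 5 genes with a mean of at least 10 normalized counts, 3 were called, against 3.03% of the 3757 genes at that level, and the same 3 had an unadjusted p under 0.05, against 12%. These counts used the contrast by which the set was picked, so they are a description and nothing is read from them. The log2 change was negative for 9 of the 10 genes and for 45.5% of all genes, and its median was -1.28 against 0.07 for all genes. Smoc1 had 0 distal counts, and with its distal side set at 3 counts the log2 change was negative for 8 of the 10 genes. The median of the 10 genes could not move with Smoc1, which already stood above the middle of the set. Spock1 and Spock3 had 1 distal count each. With distal set at 3 counts their log2 changes were -1.39 and -0.39. The bound of Spock3 lies above the median of -1.28, so the median would be less negative with these bounds. Its value was not computed. The 7 other genes were not called.

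**Figure D1:**
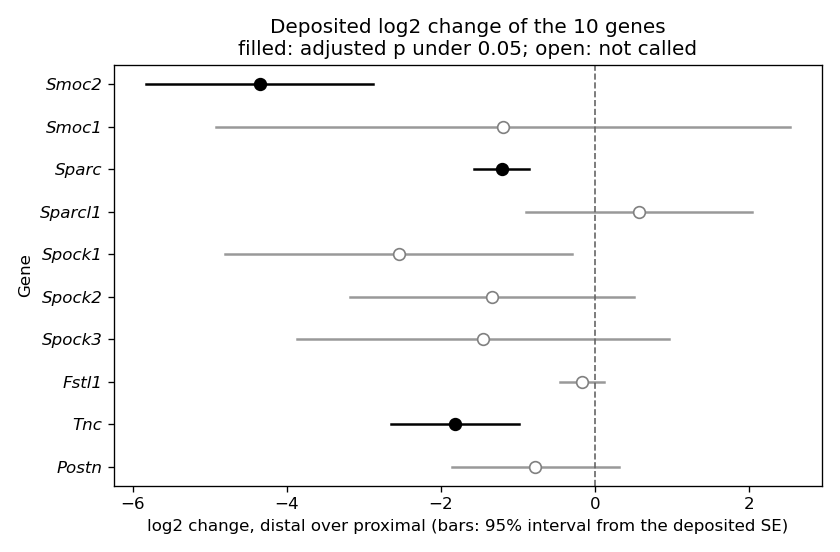
The log2 change of distal over proximal (x axis) for each of the 10 genes (y axis), with bars for the 95% interval from the deposited standard error. Filled points mark Smoc2, Sparc and Tnc, whose intervals lie below 0, and open points mark genes that were not called, among which the interval of Spock1 also lies below 0.

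Smoc2 stood furthest from 0. Smoc2 (ENSMUSG00000023886, chr17:14279506-14404790 on the plus strand, GRCm38) had a mean of 14.6 normalized counts over the 10 regions in the authors' deposited table. The fitted side means that follow from this table were 1.36 normalized counts in distal and 27.8 in proximal. They correspond to about 3.97 distal and 268 proximal counts over the 5 regions of each side. The authors' deposited table put its log2 change at -4.36 ± 0.75 (SE; DESeq2-style Wald test, adjusted p = 3.05e-06). That is a level 20.5-fold higher in proximal, with a 95% interval from 7.38 to 56.8. Only 3 of the 13916 genes had a lower log2 change, so Smoc2 ranked 4 from the lowest. Counting error on 4 distal counts alone spans 1.09 to 10.2 counts (exact Poisson interval). Given the spread between regions that the authors' fit used, counting accounts for 94.2% of the squared standard error of Smoc2. The distal level of Smoc2 thus rests on about 4 counts and the proximal level on about 268.

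The 3 called genes with log2 changes nearest to that of Smoc2 are all known from muscle. Acta2, the smooth muscle actin, stood at -4.22 on the log2 scale in the authors' deposited table, a distance of 0.13 from Smoc2. Myog, a transcription factor of muscle differentiation, was at a distance of 0.19. Myl1, a myosin light chain of skeletal muscle, was at a distance of 0.22. Myog and Myl1 stood at about 1.43 distal counts each, so their folds are bounds: Myog was at least 8.58-fold lower and Myl1 at least 11.3-fold lower in distal, with distal set at 3 counts over the side. Reads of Myl1 are uncertain, since a near-identical copy, Mylf-ps, matches it at 99.6%. The likeness is a distance between log2 changes of 2 sides and says nothing of shared cells. Of 9 skeletal muscle markers, 3 were called (Myog, Actc1 and Myl1), all higher in proximal, against 0.582% of all genes. The list summed to 12.2 normalized counts in distal and 107 in proximal, of which Actc1 alone made up 8.27 and 71.5. Of 4 smooth muscle markers, 3 were in the table, which does not hold Myh11, and Acta2 was the one called. The list summed to 2.31 in distal and 27.0 in proximal, of which Acta2 alone made up 1.33 and 24.9. Tagln and Cnn1 were not called, at -1.16 and -1.01 on the log2 scale, and had few counts. The part of these cells in the Smoc2 difference was not tested. In these bulk regions, fewer cells of a type and less RNA per cell cannot be told apart.

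Smoc1, the closest relative of Smoc2, was barely sampled. Its mean in the authors' deposited table was 0.366 normalized counts, low enough that the count of every region could be recovered: a single set of whole counts summed to the mean. Smoc1 had 0 counts in each of the 5 distal regions. In the proximal regions, ordered from the deepest to the shallowest, it had 2, 4, 2, 0 and 0 counts. All 8 counts thus came from the 3 deepest proximal regions, and the other two proximal regions looked like the distal ones. The 0 distal counts allow a normalized mean of up to 1.02, above the 0.732 measured in proximal, so no difference was detectable at this depth. Without the proximal region that held 4 counts, the proximal mean was 0.462. The log2 change in the authors' deposited table was -1.19 ± 1.90 (SE). Whether Smoc1 differed between the sides in the way Smoc2 did could not be read from 8 counts.

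Sparc was sampled deeply and was lower in distal. Sparc (ENSMUSG00000018593, chr11:55394500-55423183 on the minus strand) encodes the collagen-binding glycoprotein also called osteonectin. Its mean was 108 normalized counts in the authors' deposited table, with fitted side means of 65.4 in distal and 151 in proximal. These correspond to about 192 distal and 1462 proximal counts. The authors' deposited table put its log2 change at -1.21 ± 0.18 (SE; DESeq2-style Wald test, adjusted p = 3.56e-08). The proximal level was 2.32-fold the distal level, with a 95% interval from 1.80 to 2.97. Counting made up 36.2% of its squared standard error, the rest being the spread between regions of a side that the authors' fit used.

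**Figure D2:**
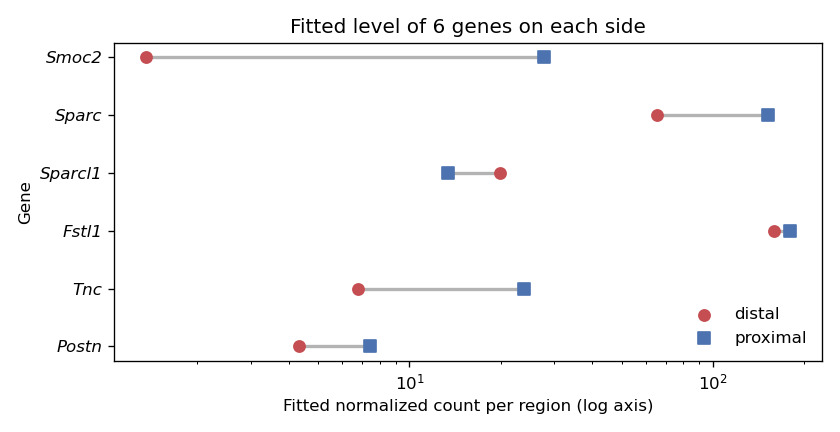
Fitted normalized counts per region (x axis, log scale) in distal (circles) and proximal (squares) for the 6 genes with a mean of at least 5 normalized counts (y axis). Smoc2 has the widest gap, from 1.36 to 27.8, the symbols of Fstl1 nearly touch at 160 and 179, and Sparcl1 alone has distal to the right of proximal.

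Sparcl1, a relative of Sparc also called hevin, was the only gene of the set with a positive log2 change, and it was not called. Sparcl1 (ENSMUSG00000029309, chr5:104079111-104113733 on the minus strand) had a mean of 16.6 normalized counts in the authors' deposited table, close to that of Smoc2. The fitted side means were 19.9 normalized counts in distal and 13.4 in proximal, or about 58.1 and 129 counts. In the authors' deposited table its log2 change was 0.57 ± 0.75 (SE; DESeq2-style Wald test, adjusted p = 0.991). The 95% interval ran from -0.90 to 2.04 on the log2 scale, so it held both lower and higher distal levels.

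The spread between regions fitted to Sparcl1 was far larger than that fitted to other genes at its depth. A dispersion, the fitted squared coefficient of variation between regions of one side beyond counting error, was computed for every gene. It is the value that gives the deposited standard error, not a spread measured from region counts. A DESeq2-style fit commonly draws the dispersions of most genes toward a trend with the mean and leaves outliers as estimated. Genes near the trend can then look more alike than their counts were. It was 0.608 for Sparcl1, a coefficient of variation of 77.9%. The median over the 1117 other genes with a mean within 1.25 times of its own was 0.0493, a coefficient of 22.2%, and none of them exceeded Sparcl1. Among all 3757 genes with a mean of at least 10, Sparcl1 ranked 1, ahead of Col2a1 with 0.270. Counting made up 9.25% of its squared standard error. Smoc2 and Sparcl1 had nearly the same standard error, 0.75. In the fit, that of Smoc2 came mostly from few distal counts and that of Sparcl1 mostly from the dispersion. Whether the regions of Smoc2 were even cannot be read from so few distal counts. Which regions held the Sparcl1 counts is not given by the table, and the dispersion comes from the same fit as the log2 change, so it carries no test.

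**Figure D3:**
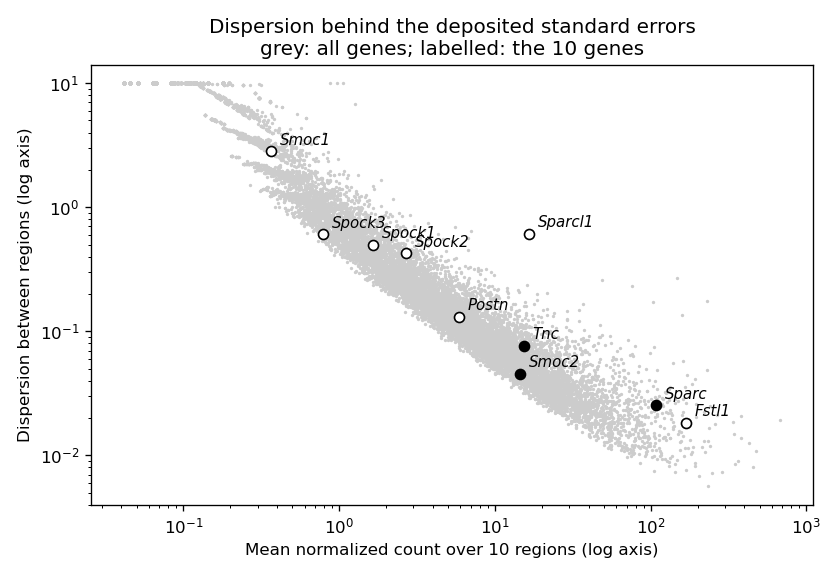
Dispersion between regions of a side (y axis, log scale) against the mean normalized count over 10 regions (x axis, log scale), with all genes in grey and the 10 genes labelled. Sparcl1 stands at 0.608, above every grey point at a mean of at least 10, while Smoc2 at 0.0456 lies within the band. All values are fitted, and a fit drawn toward a trend would also place a gene within the band.

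The Spock genes were thinly covered, and none was called. Spock1 (mean 1.65 normalized counts in the authors' deposited table) had 0, 0, 1, 0 and 0 counts in the distal regions, ordered from the deepest to the shallowest. Its proximal regions had 5, 4, 2, 5 and 10 counts in the same order. Spock1 was thus detected in 1 of 5 distal and 5 of 5 proximal regions, but after division by depth the single distal count stood at 1.79 normalized counts, inside the proximal range of 1.02 to 6.66. The ratio of proximal to distal counts per unit of depth was 7.89, with an exact 95% interval for counting error from 1.30 to 323. For Spock1 the authors' deposited table gave -2.55 ± 1.15 (SE) on the log2 scale, with an unadjusted p of 0.0268 that became 0.688 after adjustment in the DESeq2-style test.

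Spock2 had 1, 1, 0, 0 and 2 distal counts and 6, 5, 7, 2 and 13 proximal counts, again from the deepest region to the shallowest. Its normalized counts ran from 0 to 6.09 in distal and from 1.28 to 8.65 in proximal, so the sides overlapped. The distal mean of 1.74 rested mostly on the shallowest region and was 0.658 without it. The proximal mean of 3.65 fell to 2.40 without the shallowest proximal region, and the difference between the sides then shrank from 1.91 to 0.656. The ratio of proximal to distal counts per unit of depth was 2.50, with an exact interval from 0.890 to 9.72. Its log2 change in the authors' deposited table was -1.34 ± 0.94 (SE).

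Spock3 was lower still in coverage, with 1, 0, 0, 0 and 0 distal counts and 3, 4, 2, 1 and 3 proximal counts. Its single distal count stood at 1.20 normalized counts, within the proximal range of 0.638 to 2.00. The ratio was 3.94, with an exact interval from 0.592 to 168, and the authors' deposited table gave a log2 value of -1.45 ± 1.23 (SE). Each Spock gene was thus seen in every proximal region and in 1 to 3 distal regions, with 23.3% of the depth on the distal side.

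**Figure D4:**
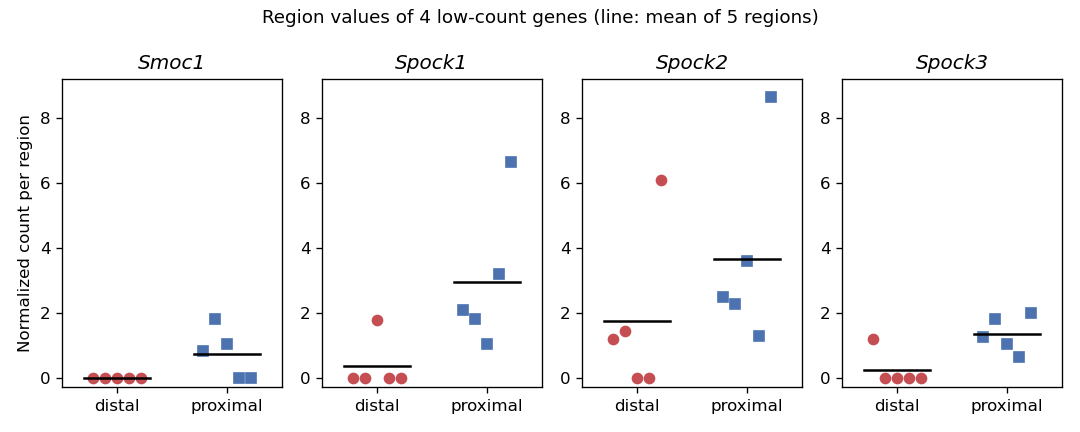
Normalized counts per region (y axis) in the 5 distal regions (circles) and 5 proximal regions (squares) of Smoc1, Spock1, Spock2 and Spock3, ordered from the deepest region at the left, with a line at the mean of a side. Most distal points lie at 0, and in Spock1, Spock2 and Spock3 a distal point lies within the proximal range.

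Fstl1 had the narrowest interval of the set and was not called. Fstl1 (ENSMUSG00000022816, chr16:37776873-37836514 on the plus strand) encodes a secreted follistatin-like glycoprotein of mesenchyme. It had the highest mean of the set, 169 normalized counts in the authors' deposited table, with fitted side means of 160 in distal and 179 in proximal. For Fstl1 the log2 change in the authors' deposited table was -0.17 ± 0.15 (SE; DESeq2-style Wald test, adjusted p = 0.991). The proximal level was 1.12-fold the distal one, with a 95% interval from 0.922 to 1.37. That interval does not reach the 2.32-fold difference of Sparc, and the difference between these genes was not tested.

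Tnc was called as well. Tnc (ENSMUSG00000028364, chr4:63959785-64047015 on the minus strand) encodes tenascin C, a large matrix glycoprotein. In the authors' deposited table its mean was 15.3 normalized counts, and the fitted side means were 6.79 in distal and 23.9 in proximal. These correspond to about 19.9 distal and 231 proximal counts. The authors' deposited table put the log2 change of Tnc at -1.81 ± 0.42 (SE; DESeq2-style Wald test, adjusted p = 0.0035). The proximal level was 3.52-fold the distal level, with a 95% interval from 1.98 to 6.26.

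Postn, which encodes periostin, a matrix protein of periosteum and ligament, was not called. Its mean was 5.87 normalized counts in the authors' deposited table, with fitted side means of 4.33 in distal and 7.41 in proximal, or about 12.7 and 71.6 counts. In the authors' deposited table the log2 change of Postn was -0.77 ± 0.55 (SE; DESeq2-style Wald test, adjusted p = 0.991). Its 95% interval from -1.86 to 0.31 on the log2 scale held both 0 and the change of Tnc, -1.81.

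**Figure D5:**
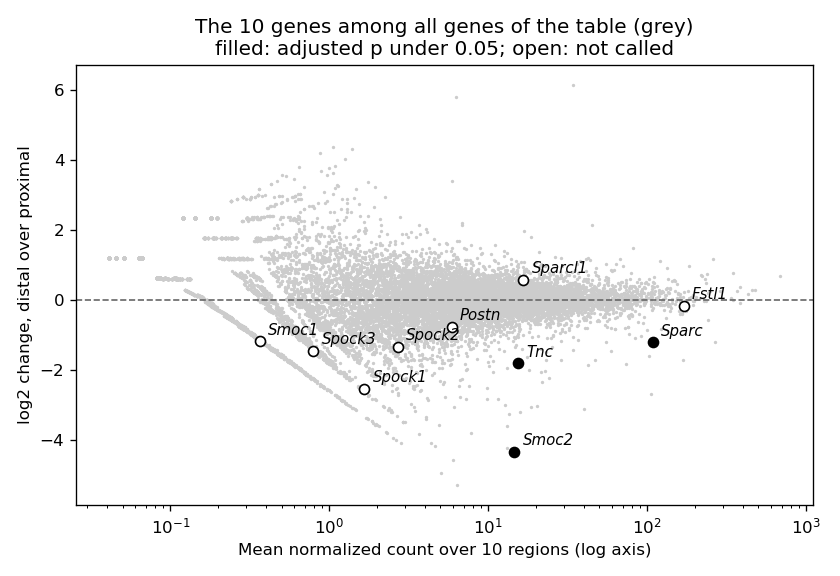
Log2 change of distal over proximal (y axis) against the mean normalized count over 10 regions (x axis, log scale), with all 13916 genes in grey, called genes of the set filled and the others open. Smoc2, at -4.36, lies near the lower edge at its mean, Sparc and Tnc lie below most grey points at their means, and Fstl1 lies among them.

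Promoter sequences from RefSeq (GRCm38.p6) were at hand for 7 of the 10 genes, which leaves out Smoc1, Smoc2 and Sparcl1. One of the RefSeq windows of Tnc, a called gene, is shown because it lies wholly before the annotated gene. It covers the 250 bases at chr4:64047016-64047265 on the minus strand, with capitals for the match to TATAAA, the core letters of the TATA box motif. The match lies near the middle of the window, away from the start of the gene, and is not taken to be the TATA box of Tnc.
Tnc: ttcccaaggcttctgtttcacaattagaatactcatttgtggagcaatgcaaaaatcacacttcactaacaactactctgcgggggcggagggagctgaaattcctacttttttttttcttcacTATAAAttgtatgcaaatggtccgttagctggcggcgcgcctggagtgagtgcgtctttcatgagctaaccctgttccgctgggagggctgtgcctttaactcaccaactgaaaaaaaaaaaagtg
This window held 1 match to TATAAA, searched on both strands, and so did the other RefSeq window of Tnc, which overlaps it and reaches into the gene. Only exact matches were counted, so variants of the TATA box motif would be missed in either window. Of 32851 promoters of the same length, 12.4% held a match. CCAAT, the other motif searched on both strands, was not in these letters and was in 33.8% of all promoters. GC content was 44.8% in the window shown, against a median of 52.4% over all promoters. These letters describe the window and say nothing of a factor.

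Other matricellular genes gave no call. Of 27 listed thrombospondins, CCN proteins, other tenascins, fibulins, follistatins and related genes, 23 were in the table and 0 were called by the authors' DESeq2-style test. At an unadjusted p under 0.05 there were 5 of 23, against 6.07% of all genes, with 4 lower in distal (3.51% of all genes) and 1 higher (2.56%). The median log2 change of the list in the authors' deposited table was -0.42, against 0.07 for all genes. For 4 of the 23 genes both sides stood at 3 counts or fewer, where no difference was detectable, and the median of the others was -0.55.

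Among genes whose products bind or are regulated by the set, 7 of 44 were called, against 0.977% of all genes. All 7 were among the 29 genes of these lists with a mean of at least 10 normalized counts. At that level 3.03% of 3757 genes were called, which is the closer comparison. The call counts were 6 of 17 for collagens and other matrix genes, all higher in proximal (0.582% of all genes). They were 0 of 6 for integrins, 0 of 5 for proteases and 1 of 16 for BMP signalling, higher in distal (0.395% of all genes). Among fibrillar collagens, to which SPARC is known to bind, the authors' deposited table put Col1a1 at -1.19 ± 0.15 (log2 change, SE; DESeq2-style Wald test, adjusted p = 4.54e-12). Col3a1 stood at -1.62, Col5a1 at -1.04 and Col1a2 at -0.59 on the log2 scale in the authors' deposited table, and all were called. The other fibrillar chains of the list were not called. Col5a2 stood at -0.52, Col11a1 at -0.18, Col11a2 at -0.82 and Col2a1 at 0.57 on the log2 scale in the authors' deposited table. Col5a3 was at or under 3 counts on both sides. Collagen VI, a beaded filament collagen, had 2 called chains, Col6a3 at -3.61 and Col6a1 at -1.50 in the authors' deposited table, and 1 that was not called, Col6a2 at -0.82. Col12a1 was not called and stood at 0.39 in the authors' deposited table, with an unadjusted p of 0.0136 that became 0.487 after adjustment in the DESeq2-style test. The cartilage collagen gene Col2a1 was not called, at 0.57 ± 0.48 (log2 change, SE) in the authors' deposited table. Fn1, which encodes fibronectin, was not called either and stood at -0.10 ± 0.14 (log2 change, SE) in the authors' deposited table.

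BMP signalling was listed because the SMOC proteins are known to restrain it. Id3, a target of BMP signalling, was the 1 call among 16 genes, at 0.44 ± 0.12 in the authors' deposited table (log2 change, SE; DESeq2-style Wald test, adjusted p = 0.0345). Id3 was no longer called once the median of all genes, 0.07, was subtracted. That median includes many genes with hardly any counts, while the mean of Id3 was 154 normalized counts. For the 3757 genes whose mean reached 10, the median was 0.005. Whether Id3 stays called with this smaller value subtracted was not computed. In the authors' deposited table the median log2 change of the 16 BMP signalling genes was -0.07. At an unadjusted p under 0.05 in the DESeq2-style test there were 4 of 16, against 6.07% of all genes. Of these, 2 were higher in distal (2.56% of all genes) and 2 in proximal (3.51%). No relation between Smoc2 and these genes was tested, since both were measured in the same pair of libraries.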

How the data were processed

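Per the labels, cDNA of 5 distal and 5 proximal regions was pooled into 1 library a side. Per the submitters' processing notes the builds are mm10 and GRCm38; the aligner and the counter are not given in the sources used here. Per the file headers the deposited table is that of a DESeq2-style test: a mean of normalized counts, which is a signal averaged over all regions by the authors, a log2 change (distal over proximal) with its standard error in log2 units, a Wald score, and a p-value and adjusted p-value, all computed by the authors. No new count test was run: region counts could be recovered only for genes of low mean, and a test across all genes needs the counts of the whole table.

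Size factors were read from steps in the lowest means, each shared by at least 20 genes, and the side from how the log2 change moved with a second count. A single set of whole counts matched 4613 of the 4624 lowest genes (means of 1.2 or less), and refitting these counts with a minimum fitted mean of 0.5 returned the deposited log2 change within 0.001 for all 4613. For Spock1 and Spock2, 2 and 83 sets matched the mean and 1 each matched the log2 change as well. Side means were computed from the mean and the log2 change, and side counts from these and the size factors; over 654 genes with a mean of 0.8 to 1.2, the median absolute error was 0.256 distal and 0.674 proximal counts. Intervals on log2 changes are normal 95% intervals, and count intervals cover counting error only. Regions of a side come from organoids of shared cultures, so deposited p-values measure the spread between these regions.

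Members and lists were chosen with earlier results of these data known. Named genes are the 10 members, the called genes of the related and partner lists and the 3 calls nearest to Smoc2; other genes, such as markers and collagens that were not called, were named after their values were seen. Scripts were tested on simulated counts. Python 3.11.15, numpy 2.4.6, scipy 1.17.1, Biopython 1.88 and BLAST 2.17.0 were used, with GENCODE M21 for gene models.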

Additional observations from a re-analysis of the deposited data

Results flagged for a closer look

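Among the recovered region counts, the highest distal region of Spock2 lay far above the other distal regions, at 6.09 normalized counts. It was the shallowest distal region and held 2 counts. For Spock1 a distal region stood at 1.79 normalized counts and for Spock3 one at 1.20, each the only distal count of its gene. A single count among regions at 0 stands apart by construction, whatever the gene, so these values say nothing of the region.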

How the results depend on the processing

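The 3 calls among the 10 genes were Smoc2, Sparc and Tnc under 6 of 7 alternatives (other thresholds, other sets of genes for the adjustment, a limit on size and centring), and an unadjusted p under 0.05 added Spock1, for 4. At an unadjusted p under 0.05, which 6.07% of all genes reached, the related matricellular genes had 5 calls of 23 and the partner genes 14 of 44. The other 6 alternatives gave 0 for the former and 5 to 7 for the latter. With distal set at 3 counts, the log2 change of Smoc1 turned from -1.19 to 0.31, that of Spock1 moved from -2.55 to -1.39 and that of Spock3 from -1.45 to -0.39, by construction of the bound. With recovered counts in place of fitted means, the distal share of Smoc1 moved from 30.5% to 0% and that of Spock3 from 26.8% to 15.2%. Centring changed the direction of no member's log2 change. Settings chosen after seeing the data ranked the dispersion of Sparcl1 at 3 among the 5929 genes whose mean was 5 or more, after Egr1 and Fau, and at 6 among the 7255 whose mean was 3 or more. No paired analysis was possible because values per region are not in the deposited comparison, and for 6 of the 10 genes no region could be left out for the same reason. For the 4 genes with recovered counts, leaving out each region in turn (chosen after seeing the data) gave a proximal minus distal difference in normalized means of 0.462 to 0.915 for Smoc1, 1.66 to 3.07 for Spock1, 0.656 to 2.99 for Spock2 and 0.937 to 1.34 for Spock3. Without the only distal region with a count, the distal means of Spock1 and Spock3 were 0. Distal depth, 23.3% of the total, limits the genes with few counts most.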

Other observations

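For Spock1, Spock2 and Spock3 the highest normalized count of all proximal regions was in the same region, the shallowest one, at 6.66, 8.65 and 2.00. Its counts were 10, 13 and 3, against 0 for Smoc1. The sequence of depth is the only label these regions have, so where they lay in the organoids is not known here.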
